A study of Mus musculus with 2 samples.

Results

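Cytosolic ribosomal protein genes were examined on 2 mouse Affymetrix 3' expression arrays, 1 with RNA of cells labelled Sirt6 knockout and 1 with RNA of cells labelled wild type. A gene was taken as a member when its symbol in the platform annotation was Rpl or Rps followed by a number, with an ending of a, x or l allowed, or one of the acidic stalk genes Rplp0 to Rplp2 or Rpsa. The probe set had to name that gene alone, and S6 kinases and pseudogenes were left out. By this rule 45 of the 18193 genes named alone by a probe set were members, 24 of the large subunit and 21 of the small subunit, on 99 of 45037 probe sets. Both samples were hematopoietic stem cells (HSC, marrow cells from which all types of blood cell descend) of mice aged 3 months, and the labels list no allele for the wild type. How the Sirt6 allele was made, how the cells were sorted and how many mice were pooled are not stated in the sources used here. Each genotype had 1 array, so there was no replicate, and no SD between samples, test or p-value was computed. Every difference below compares these 2 RNA samples.

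The cytosolic ribosome has a small subunit, which reads the mRNA, and a large subunit, which joins amino acids and releases the chain through an exit tunnel, and each protein is built into the particle in a single copy in nearly all cases. Mouse ribosomal protein mRNAs are abundant and start with a pyrimidine tract that places their translation under mTOR and Larp1, and their genes are among those bound by Myc. Sirt6, which removes acetyl groups from histones in the nucleus and needs NAD to do so, has been described as a corepressor of Myc at ribosomal protein genes in tumour cells, and loss of 1 copy of several ribosomal protein genes causes Diamond-Blackfan anemia, a failure of red cell production. HSC make protein at a low rate compared with the progenitors they give rise to.

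The signals are MAS5 intensities, 1 per probe set and array, and the array medians were 60.7 (labelled knockout) and 60.8 (wild type). A floor was set at a signal of 60.5, the median probe set, and a gene counted as measured when above it on at least 1 array, which held for 11547 genes. The single Sirt6 probe set read 174 on the knockout-labelled array against 124 in wild type, so the targeted gene was not lower and the label could not be checked by it. Which part of the transcript that probe set covers is not stated in the sources used here. HSC markers were above the floor on both arrays, some clearly (Kit read 1746 and 1709, Procr 563 and 1033 in the order knockout, wild type). Others were dimmer: Slamf1 read 131 and 140, Hoxb5 99.6 and 103, and Fgd5 88.5 and 230. Granulocyte markers were present too, among them Mpo (7914 and 5051) and S100a8 (3584 and 2308). Of 5 T cell markers Cd3d, Cd3e, Cd3g and Cd4 were under the floor on both arrays, whereas Cd8a was above it (94.4 and 81.2, log2 0.22). Markers of blood cell types differed between the arrays. Of 9 granulocyte markers 8 were at least 1.5-fold higher on the knockout-labelled array, a size passed upward by 1.71% of all measured genes (summed signal 22149 against 13263). Of 8 measured HSC markers 4 were at least 1.5-fold lower, a size passed downward by 2.63% (7086 against 8785). Of 4 measured B cell markers 2 were at least 1.5-fold higher (summed signal of the 5 listed probe sets 1089 against 516). Of 3 measured erythroid markers only Car1 (128 against 499) was at least 1.5-fold lower. Klf1 (160 against 179) and Hba-a2 (69.1 against 75.05) differed less, and Hba-a1 was under the floor on both arrays. The summed signal of these erythroid probe sets was 370.2 against 766.8. The part of these marker differences in the values of the ribosomal protein genes was not tested. In such bulk samples fewer cells of a type and less RNA per cell cannot be told apart, and because each array was scaled as a whole, a change in the RNA content of all cells would not be seen.

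Signal of the ribosomal protein genes was nearly the same on both arrays. Of the 45 members, 42 were measured, all 42 on both arrays, and the median log2 ratio (labelled knockout over wild type) was -0.0018, beside 0.0023 over all 11547 measured genes. Of the 42, 20 had a positive and 22 a negative ratio. The middle 50% of the members ran from -0.03 to 0.02, where the same range over all measured genes ran from -0.13 to 0.13. Of the 42 members 0 were at least 1.5-fold different, a size passed in either direction by 4.35% of all measured genes. At a size of 1.2-fold 0 members were higher, beside 10.4% of all measured genes, and 1 was lower, beside 11.5%. That member was Rpl12. The 99 member probe sets together held 4.15% of all signal on the knockout-labelled array against 4.14% in wild type.

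**Figure D1:**
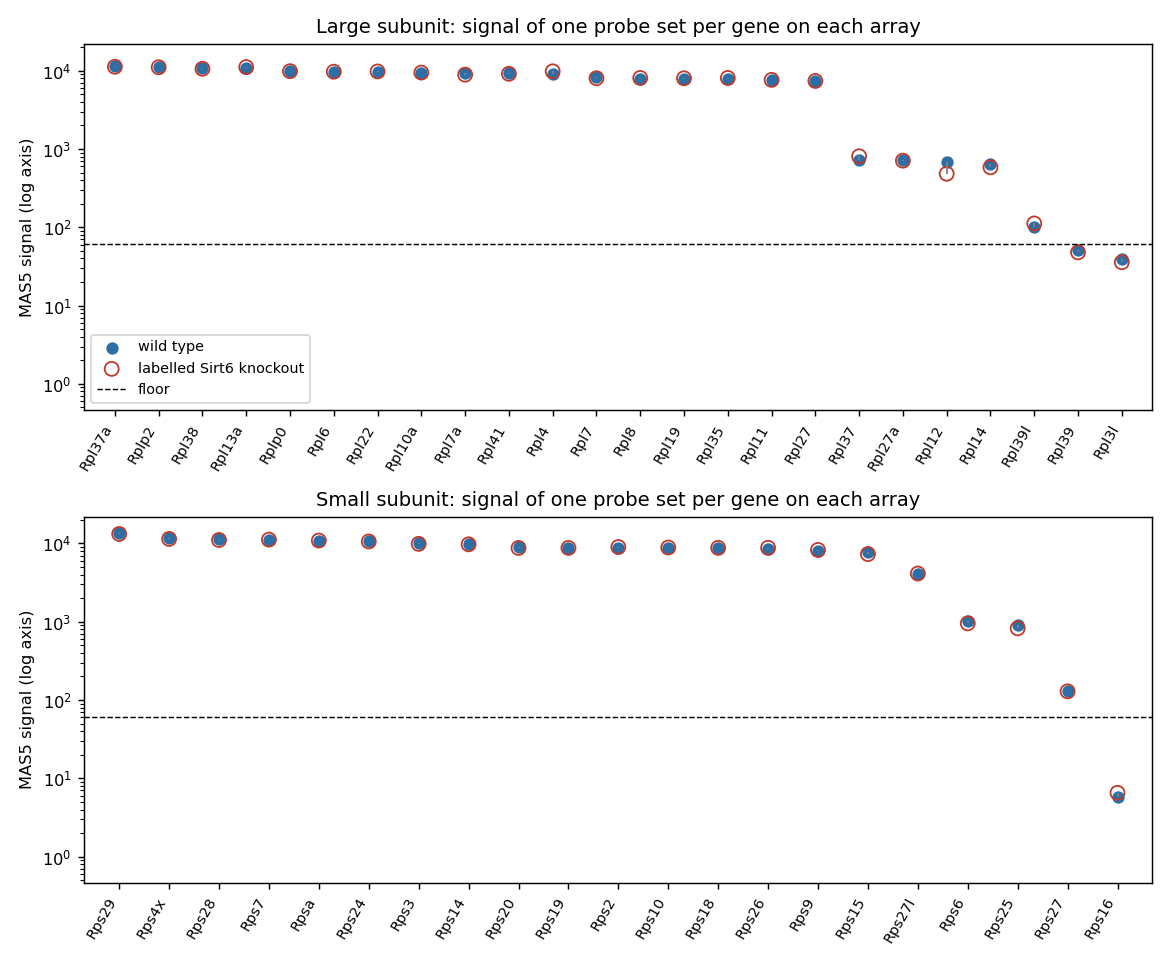
MAS5 signal (log axis) of 1 probe set per gene on the array labelled Sirt6 knockout (open circles) and the wild-type array (filled circles), for the 24 large-subunit and 21 small-subunit genes ordered by their wild-type signal. The circles of each gene coincide closely, with the widest offset at Rpl12, and 3 genes (Rpl39, Rpl3l, Rps16) lie under the dashed floor. Signals of different genes come from different probes and are not compared as levels.

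The start sites of some of these genes carry a feature that the choice of members did not use. RefSeq promoter windows (GRCm38.p6, 250 bases before to 50 after each annotated start) matched 40 of the 45 members by gene identifier. A pyrimidine run, searched on the gene's own strand as a C followed by at least 7 further C or T in the 20 bases before to 10 after a start, was found in 18 of 40 members (45%) and in 3061 of 27025 genes in all (11.3%). The shares were 10 of 22 in the large and 8 of 18 in the small subunit. Windows are shown for members with a long run, for the pair Rps27 and Rps27l, for Rpl38, whose window also holds the ETS core CCGGAAG, and for Rpl12, Rpl37 and Rpl39l, which had the most negative and the most positive ratios and no such run. Capitals mark the run, each window is 5′ to 3′ on the strand of the gene, and Rps27l has a further annotated start that is not shown.
Rpl7a, chr2:26910787-26910816, plus strand: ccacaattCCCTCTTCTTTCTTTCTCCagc
Rpl35, chr2:39005122-39005151, minus strand: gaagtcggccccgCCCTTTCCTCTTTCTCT
Rpl14, chr9:120571497-120571526, plus strand: cggcagggcgggCCCTCTCTCTTCTCgctg
Rpl27a, chr7:109519175-109519204, plus strand: cgcgagacttcgtgagCTCCTCCCTTTTCC
Rpl4, chr9:64173367-64173396, plus strand: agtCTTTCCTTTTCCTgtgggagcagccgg
Rps10, chr17:27635235-27635264, minus strand: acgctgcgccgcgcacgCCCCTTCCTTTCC
Rps25, chr9:44407694-44407723, plus strand: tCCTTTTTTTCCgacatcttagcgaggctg
Rps6, chr4:86857358-86857387, minus strand: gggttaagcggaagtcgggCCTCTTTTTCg
Rps27, chr3:90213639-90213668, minus strand: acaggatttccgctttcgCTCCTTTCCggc
Rps27l, chr9:66946066-66946095, plus strand: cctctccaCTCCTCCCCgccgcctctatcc
Rpl38, chr11:114668560-114668589, plus strand: ccggaagcggaagcctcgttCTTTCCCCgt
Rpl12, chr2:32961692-32961721, plus strand: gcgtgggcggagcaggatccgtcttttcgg
Rpl37, chr15:5116593-5116622, plus strand: gaagtagtttcctgggcggaagcttatcca
Rpl39l, chr16:10170208-10170237, plus strand: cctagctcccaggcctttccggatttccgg
The run of Rpl7a spans 19 bases and that of Rpl35 spans 17 and reaches the end of the window.

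Other letters were searched on both strands of the whole window. CCGGAAG, the core bound by ETS factors such as GABP, was in 20 of 40 members (50%) and 9.93% of all genes, with the same share in both subunits (11 of 22 and 9 of 18). It is not particular to the members, as 26 of 69 mitochondrial ribosomal protein genes (37.7%) held it too. The pyrimidine run was in 11 of those 69 (15.9%). Of the listed translation factors and other mRNAs with a terminal pyrimidine tract, 3 of the 11 with a window held it (27.3%). CACGTG, the E-box that Myc binds, was in 4 of 40 members (10%) and 8.09% of all genes. GCCATCTT, a form of the YY1 site, was in 3 of 40 (7.5%) and 3.19%, and TATAAA in 5 of 40 (12.5%) and 15.7%. Mitochondrial ribosomal protein genes held GCCATCTT in 12 of 69 (17.4%), a larger share than the members. The start window of Rpl38, printed above, holds both CCGGAAG and the pyrimidine run. Members with and without the run had nearly the same log2 ratios, with a median of 0.0040 over the 17 measured members that have it and -0.0055 over the 20 that do not. The run may lie anywhere in its window, so this split need not tell mRNAs that start with the tract from others. The 4 measured members with CACGTG had a median of 0.0049 and the 33 without it of -0.00096. For CCGGAAG the medians were 0.013 over the 19 with it and -0.017 over the 18 without it. These matches are descriptions of the annotated start, not sites of binding.

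The large subunit had 22 measured members with a median log2 ratio of 0.0087, 12 of them positive. Rpl12, a protein at the base of the ribosomal stalk, was the only member past 1.2-fold. Its single probe set read 482 on the knockout-labelled array against 688 in wild type, a 1.43-fold difference (log2 -0.51). No second probe set names Rpl12 alone, so no check of that value within the gene was available. The next most negative ratios were those of Rpl14 (583 against 641, log2 -0.14), Rpl7a (8887 against 9251, -0.06), Rpl7 (7997 against 8287, -0.05), Rpl38 (10557 against 10788, -0.03), a gene known for its role in translation of Hox mRNAs, and Rpl37a (11218 against 11452, -0.03). These 5 lay within 1.1-fold. Other probe sets of Rpl37a gave 0.05 and 0.02, and another of Rpl7 gave 0.0058.

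The most positive ratio of the large subunit was that of Rpl37, which read 806 on the knockout-labelled array against 728 in wild type (log2 0.15, 1.11-fold). Rpl39l followed with 112 against 102 (log2 0.13). Rpl4, which lines the exit tunnel, read 9808 against 9156 (0.10), Rpl35, beside the tunnel exit, 8069 against 7779 (0.05), Rpl13a, a regulator of translation in inflammation, 11093 against 10730 (0.05), and Rpl8, near the peptidyl transferase centre, 8066 against 7915 (0.03). Another probe set of Rpl13a gave -0.07. Rpl39, another exit tunnel protein, had only 1 probe set naming it alone, and this was under the floor on both arrays (47.8 and 50.9), so its level is not known from these arrays.

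Of the ribosomal stalk, Rplp0 read 9837 on the knockout-labelled array against 10007 in wild type (log2 -0.02) and Rplp2 11050 against 11019 (0.0040). Rpl11, which with Rpl5 and 5S rRNA binds and inhibits Mdm2 when ribosome assembly fails, read 7625 against 7554 (0.013). Mdm2 itself read 739 against 705 (log2 0.07). Rpl5 and Rplp1 were named only together with other genes and have no value here. Rplp0, Rplp2, Rpl11 and Mdm2 were within 1.1-fold between the arrays, unlike Rpl12, described above.

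The small subunit had 20 measured members with a median log2 ratio of -0.0060, 8 of them positive, and all 20 were within 1.1-fold. The most negative was Rps25, needed for initiation at internal entry sites, with 824 on the knockout-labelled array against 902 in wild type (log2 -0.13). Rps6, the substrate of the S6 kinases, read 954 against 1021 (-0.10), Rps15, in the head of the subunit, 7309 against 7687 (-0.07), Rps28 11061 against 11508 (-0.06), Rps3, at the mRNA entry, 9880 against 10124 (-0.04) and Rps20 8759 against 8912 (-0.03). These are values of the brightest probe set. Other probe sets of Rps28 gave 0.03 and 0.04, and a dimmer one of Rps3 gave 0.21. The most positive were Rps26, at the mRNA exit, with 8800 against 8554 (0.04), Rps9 with 8264 against 8044 (0.04), Rps2, at the mRNA entry, with 8995 against 8764 (0.04), Rps10 with 8870 against 8696 (0.03), Rps18 with 8783 against 8638 (0.02) and Rpsa, also known as the laminin receptor, with 10886 against 10706 (0.02). Other probe sets of Rps10 ran down to -0.24 and those of Rps18 to -0.32. The X-linked Rps4x, the other X-linked member beside Rpl39, read 11420 against 11609 (-0.02). Rps29 read 13211 against 13431 (-0.02). Rps16 was under the floor on both arrays (6.54 and 5.74) on its only probe set.

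The difference between the medians of the subunits (large minus small) was 0.015 on the log2 scale, and no replicate gives it an error. Among the 34 members with a mean signal of at least 1000 it was 0.014. Summed over all their probe sets, large-subunit genes gave 252756 signal units on the knockout-labelled array against 251213 in wild type. Small-subunit genes gave 310950 and 311651.

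Genes in which loss of a copy causes Diamond-Blackfan anemia in people lay inside the range of the other members. Of 19 such genes 11 had a probe set naming them alone, and all 11 were measured, with a median log2 ratio of -0.00096. On its brightest probe set none was past 1.2-fold, beside 22% of all measured genes and 3.85% of the other genes with a mean signal of at least 4000. On these probe sets they ran from Rps28 (-0.06, with 0.03 and 0.04 on its other probe sets) to Rpl35 (0.05). Dimmer probe sets of Rps24 (-0.48) and Rpl35 (0.63) were past 1.2-fold. Rps19, the gene most often mutated in that anemia, read 8765 on the knockout-labelled array against 8822 in wild type (log2 -0.0093), and Rps24 read 10593 against 10600 (-0.00096). Rps7, an Mdm2-binding protein of the small subunit, read 11189 against 11209 (-0.0026).

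**Figure D2:**
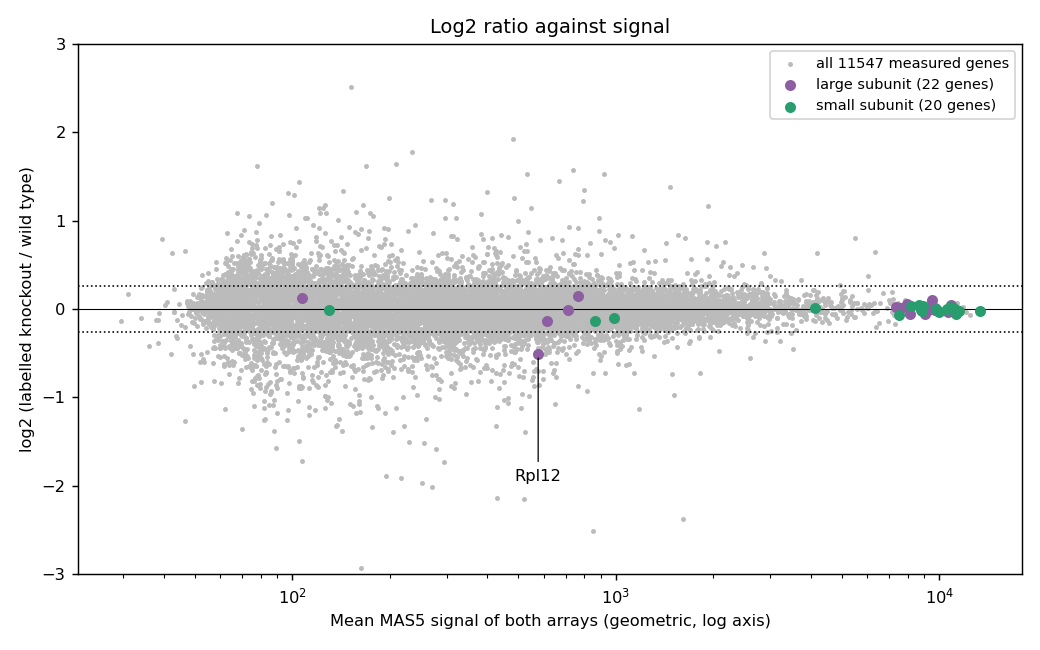
Log2 ratio (labelled knockout over wild type) against the geometric mean signal of both arrays (log axis) for all 11547 measured genes (grey), 22 large-subunit genes (purple) and 20 small-subunit genes (green), with dotted lines at 1.2-fold. Most members sit at the bright end close to 0, and Rpl12 is the 1 member outside the dotted lines.

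The closeness of the ratios went with brightness. Of the 42 measured members, 34 had a mean signal of at least 1000, and in fact of at least 4000, which placed them in the top 1% of probe sets on both arrays (lowest percentile 99.2). Their log2 ratios ran from -0.07 (Rps15) to 0.10 (Rpl4), with an SD over genes of 0.037 and all 34 within 1.1-fold. The other 8 had an SD of 0.21 and ran from -0.51 (Rpl12) to 0.15 (Rpl37), with 2 of 8 positive. Of 130 other genes with a mean signal of at least 4000, 108 (83.1%) were within 1.1-fold, 5 (3.85%) were past 1.2-fold upward and 0 (0%) downward, with an SD of 0.14. Over all measured genes the share within 1.1-fold was 52.4%. Above a signal of 7519, which is percentile 25 of the measured members, there were 14 other genes, with an SD of 0.05. How far the small ratios at such signals reflect a response of the array that flattens near its top was not tested. The highest signal on either array was 15438.

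Several probe sets of a member gave the same picture where they were bright and disagreed where they were dim. Of the 99 member probe sets 89 were measured. The 70 with a mean signal of at least 1000 ran from -0.24 to 0.10 with an SD of 0.05, and none was past 1.2-fold. The 19 dimmer ones ran from -0.51 to 0.63 with an SD of 0.30, and 5 were past 1.2-fold, 2 higher and 3 lower. Over all measured genes, taken at their brightest probe set, 10.4% passed that size upward and 11.5% downward. Of 19 members with at least 2 measured probe sets, 6 had all of them on the same side of 0. Within members the pooled SD was 0.14 over these 19 genes, 0.05 when only bright probe sets were used (18 genes), and 0.22 over the 4632 genes of the array with at least 2.

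The 4 members whose probe sets lay farthest apart each owed this to a dim probe set. For Rpl35, 5 bright probe sets gave log2 ratios from 0.04 to 0.09, and the remaining one read 116 against 75.3 (0.63, 1.55-fold). This was the only measured probe set naming a member alone that was past 1.5-fold. For Rps20, the probe sets at 8759 against 8912 and 6488 against 6243 gave -0.03 and 0.06, whereas dimmer ones read 247 against 166 (0.57) and 103 against 88.0 (0.22). For Rps24, 4 bright probe sets gave -0.02 to 0.02 and a dimmer one 335 against 468 (-0.48). For Rps18, 3 bright ones gave 0.02, 0.02 and -0.12, and those at 77.6 against 96.8 and 61.9 against 71.9 gave -0.32 and -0.22. The dim probe sets did not point one way: those of Rpl35 and Rps20 were higher and those of Rps24 and Rps18 lower on the knockout-labelled array. Which part or form of each transcript they match is not stated in the sources used here.

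**Figure D3:**
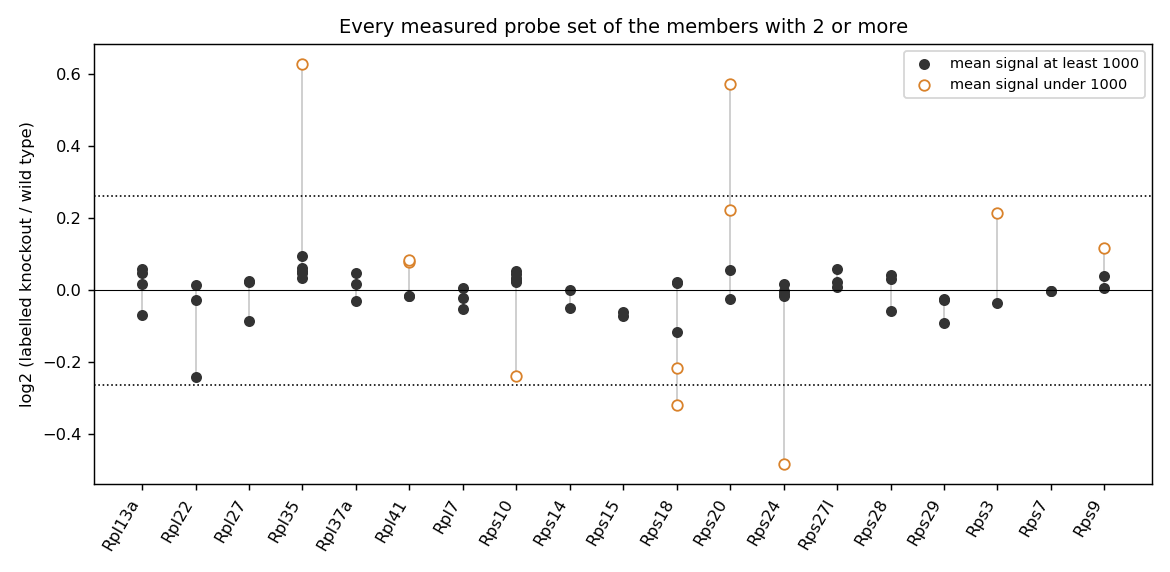
Log2 ratio (labelled knockout over wild type) of every measured probe set of the 19 members with at least 2, filled for a mean signal of at least 1000 and open below it, with dotted lines at 1.2-fold. Filled points stay within the dotted lines, and the 4 open points outside them belong to Rpl35, Rps20, Rps24 and Rps18.

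A further 28 symbols that fit the rule occurred only on probe sets listing other genes too, and were not named. All 110 probe sets that list a member symbol beside other genes were summarised together. Of these, 107 were measured, with a median log2 ratio of 0.0022. The 83 with a mean signal of at least 1000 ran from -0.26 to 0.08 with an SD of 0.05, and none was past 1.2-fold. Among the 24 dimmer ones 6 passed 1.2-fold upward and 3 downward, beside 10.4% and 11.5% of all measured genes. Processed pseudogenes of ribosomal protein genes are numerous and nearly identical to their sources, so signal from related transcripts cannot be told apart on either kind of probe set.

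Variant forms of ribosomal proteins, which end in l and replace or accompany the standard form in some tissues, were measured in part. Of the 5 listed, 4 had a probe set naming them alone. Above the floor were 3, with Rps4l, described below, counted among them. Rps27l, a p53 target that resembles Rps27, read 4128 on the knockout-labelled array against 4105 in wild type (log2 0.0080), and its other probe sets gave 0.02 and 0.06. Rps27 read 129 against 130 (-0.01) on the 1 probe set naming it alone. Rpl39l, the form of Rpl39 found in male germ cells, is given above, and Rpl3l, the form of Rpl3 found in striated muscle, was under the floor on both arrays (35.7 and 39.4). Rps4l, which RefSeq annotates as a transcribed pseudogene and which is therefore no member, read 188 on the knockout-labelled array against 107 in wild type, 1.76-fold higher (log2 0.82) on its single probe set. Rps4x, the standard form, differed by 1.02-fold.

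Of the ribosome genes listed whose symbols fall outside the rule, 4 were measured and 0 were past 1.2-fold, beside the 22% of all measured genes. Fau, which encodes Rps30 fused to a ubiquitin-like protein, read 8849 on the knockout-labelled array against 8702 in wild type (log2 0.02), and Rps3a1 read 11948 against 11802 (0.02). The paralogs Rpl22l1 (3932 against 4317, -0.13) and Rpl7l1 (1163 against 1315, -0.18, with its 3 probe sets from -0.18 to -0.06) were lower by less than 1.2-fold. Rpl22, which binds the Rpl22l1 transcript and represses it, read 9773 against 9670 (0.015) on its brightest probe set and gave -0.03 and -0.24 on the others.

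Genes that act with the ribosome showed small ratios with more spread. Of 16 measured translation factors and other mRNAs with a terminal pyrimidine tract, 0 were past 1.2-fold, beside 22% of all measured genes and 7.39% of non-member genes with a mean signal of at least 1000, and the median was -0.00016. Eef2, the translocation factor, read 6490 against 5595 (log2 0.21), Eif3f 5416 against 4716 (0.20), Eif3h 2741 against 2552 (0.10), and the noncoding Gas5 5276 against 5613 (-0.09, with its 4 probe sets from -0.55 to -0.03). Of 76 mitochondrial ribosomal protein genes, the counterparts in the mitochondrial ribosome, 4 were lower by 1.2-fold or more, a smaller share than the 11.5% of all measured genes, and 0 were higher, beside 10.4%. Of non-member genes with a mean signal of at least 1000, 3.22% were lower and 4.16% higher by that size, but many of the 76 were dimmer. The median of the 76 was -0.06, beside 0.0023 over all measured genes, with 28 of 76 positive. The 4 lower ones were Mrps15 (832 against 1085, -0.38), Mrpl14 (511 against 630, -0.30), Mrps6 (378 against 464, -0.30) and Mrpl49 (515 against 623, -0.27).

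Of 31 genes of ribosome assembly and RNA polymerase I, all measured, 2 passed 1.2-fold upward and 1 downward, both smaller shares than the 10.4% and 11.5% of all measured genes. Among non-member genes with a mean signal of at least 1000 the shares were 4.16% and 3.22%. Of the 31, 22 were positive, and their median was 0.06. Utp20 (842 against 679, log2 0.31) and Bop1 (499 against 407, 0.29) were the higher ones, both of rRNA processing, but a second probe set of Bop1 gave 0.014. Wdr12, the partner of Bop1, had 0.24 on its brightest probe set and -0.38 on another. The RNA polymerase I factor gene Taf1b was the lower one (138 against 179, -0.37). Among 13 measured regulators of these genes or of ribosome stress 4 were at least 1.2-fold higher, Sirt6 among them, and 0 were lower, beside 10.4% and 11.5% of all measured genes, with a median of 0.10. Myc read 1656 against 1319 (0.33), Rptor of the mTOR complex 579 against 473 (0.29) and the p53 target Cdkn1a 350 against 229 (0.61). Larp1, the repressor of pyrimidine-tract mRNAs, read 2430 against 2076 (0.23), under 1.2-fold.

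**Figure D4:**
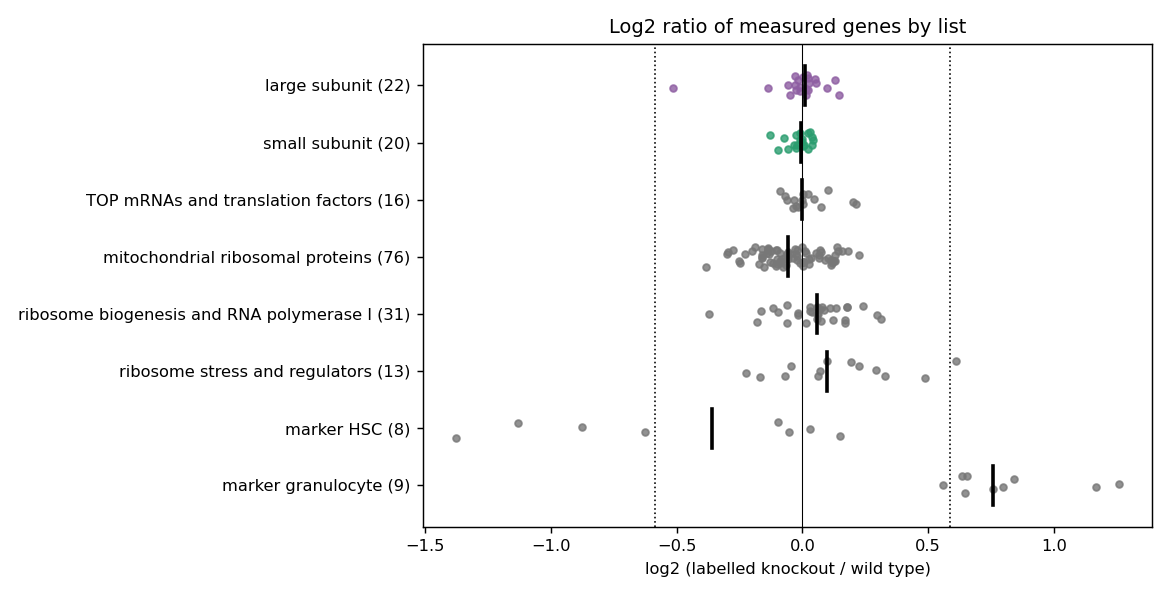
Log2 ratio (labelled knockout over wild type) of each measured gene by list, with the number of genes in brackets, the list median as a black bar and dotted lines at 1.5-fold. Ribosomal protein genes cluster at 0 apart from Rpl12, while HSC markers extend to -1.38 and granulocyte markers to 1.26.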

How the data were processed

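Total RNA of 2 HSC samples was hybridised to 1 array each. The deposited table holds linear intensities, which the authors made with MAS5, per the submitters' processing notes; its version, scaling target and detection calls are not stated in the sources used here. Values were used as deposited. The platform annotation gave 1 gene for 34945 of 45037 probe sets, several for 932 and none for 9160. The brightest probe set by mean log2 signal stood for each gene. Values under the floor (percentile 50 of the mean log2 signal, 60.5) were raised to it. With 1 array per group, fixed sizes of 1.2-fold and 1.5-fold replaced tests, and the number of arrays limits the precision. The members, lists and sizes were chosen with earlier results of these data known. Named members were the 6 highest and 6 lowest ratios per subunit, the 2 brightest and dimmest, paralogs ending in l with their standard forms, X-linked members, the stalk, exit tunnel and Mdm2-binding lists, and the 4 with the most divergent probe sets. In other lists, except those of cell type markers, the 4 with the largest ratios were named, with Sirt6, Myc and Mdm2. Further genes were named after their values were seen (Rps19, Rps7, Rpl22, Larp1 and cell type markers such as Kit and Procr). Promoter windows came from RefSeq (GRCm38.p6). The scripts were checked on simulated data. Python 3.11.15, numpy 2.4.6, pandas 2.3.3, statsmodels 0.14.6 (loess, span 0.3) and matplotlib 3.10.9 were used.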

Additional observations from a re-analysis of the deposited data

Results flagged for a closer look

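Some probe sets were kept out of the comparisons because they list a ribosomal protein gene beside other genes. Of those measured, 3 were at least 1.5-fold higher on the knockout-labelled array, with values under the floor raised to it. They were 3 of 107 measured, beside 1.71% of all measured genes past that size upward. Probe set 1453752_at read 921 on the knockout-labelled array against 273 in wild type (log2 1.75, 3.37-fold). Probe set 1447653_x_at read 352 against 202 (log2 0.80, 1.74-fold). Probe set 1455981_at read 93.8 against 60.3, just under the floor in wild type, and is therefore at least 1.55-fold higher. Probe set 1460442_at read 80.2 against 23.8, under the floor in wild type. It was not counted, as it was 1.33-fold higher with the floor. None of the 83 bright probe sets of this kind was past 1.2-fold in either direction.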

How the results depend on the processing

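Quantile normalization, centring on the median, loess, the median over probe sets, a floor at percentile 25 or 75, none at all, and a pseudocount in its place left every count of members past 1.2-fold and 1.5-fold as reported. Over these settings the median log2 ratio of all members lay between -0.015 (loess) and 0.0087 (median over probe sets), and no replicate gives it an error. The sign of the large-subunit median (0.0087 as reported) was not stable: it was -0.0045 with loess, -0.0022 with the floor at percentile 25 and -0.0022 with none. Large minus small lay between 0.00041 (no floor) and 0.022 (median over probe sets). Leaving out the _x_at and _s_at probe sets, which kept 37 measured members, 1 member was at least 1.2-fold higher and 2 lower, as dimmer probe sets stood for Rps20 (log2 0.57) and Rps24 (-0.48). The SD over members was then 0.16, beside 0.097 over the 42 members with all probe sets. Alternatives chosen after seeing the data were 2. Counting the probe sets that list other genes too gave 6 higher and 4 lower at 1.2-fold and 3 past 1.5-fold, of 149, and large minus small of -0.013. Over all measured genes as reported above, these shares were 10.4%, 11.5% and 4.35%. With a mean signal of at least 1000 required, 0 members were past 1.2-fold lower. No paired analysis was possible because each group has 1 array and the labels give no replicate numbers.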
